A study of Mus musculus with 9 samples.

Results

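The proteasome subunits and regulators described here are the protein-coding genes whose symbol begins with Psma, Psmb, Psmc, Psmd, Psme, Psmf or Psmg followed by a number. Of 21254 protein-coding genes with rows in the count table, 51 met this rule, and 48 of them encode parts, regulators or assembly chaperones of the proteasome. The other 3 symbols, *Psmc3ip*, *Psme2b* and *Psme3ip1*, carry a suffix and are kept apart as look-alike symbols. The 48 genes comprised 8 alpha and 7 beta subunits of the constitutive 20S core, 4 immune and thymus beta subunits, 9 subunits of the 19S base, 8 of the 19S lid, 5 activators and inhibitors and 7 assembly chaperones.

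The 9 libraries were a RIP-seq experiment, in which RNA pulled down with a protein is sequenced, on the RNA-binding protein CELF2. All came from the cytoplasmic fraction of newborn (P0) mouse cortex, and all animals were heterozygous for the CELF2 p.R493H knockin allele (KI), so each library carries a normal and a variant allele and no wild-type pull-down was analysed here. The 3 groups of 3 libraries were RNA pulled down with an anti-CELF2 antibody (CELF2-KI RIP), RNA pulled down with normal rabbit IgG (the IgG pull-down, or IgG RIP) and RNA taken before the pull-down (input). The labels call the libraries of a group biological replicates and do not say how many animals went into each, or that the antibody tells the variant protein from the normal one.

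The proteasome degrades proteins tagged with ubiquitin. Its barrel-shaped 20S core holds alpha rings, which form the gate, and beta rings, which carry the proteolytic sites, and the 19S cap binds ubiquitin chains and unfolds the substrate with a ring of ATPases (base) and takes the chains off (lid). In neurons the complex is known for the turnover of synaptic proteins, and its subunits are assembled in fixed proportions with the help of dedicated chaperones.

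Depth set the limits of what could be seen. Protein-coding counts ranged from 13523208 to 16840312 in CELF2-KI RIP, from 9347321 to 14965243 in the IgG pull-down and from 55250740 to 78514685 in input. Levels are counts scaled by depth (CPM) on TMM-scaled library sizes, not divided by transcript length, so they compare libraries for a gene and not genes with each other. *Celf2* mRNA itself stood at 470, 797 and 647 CPM in CELF2-KI RIP, above the 200–267 CPM of the IgG pull-down and the 278–305 CPM of input. Cortical markers were present in every group. The summed CPM of the 6 excitatory neuron markers was 1220–1510 in CELF2-KI RIP, 595–750 in the IgG pull-down and 706–845 in input, and that of the 5 erythroid markers, which belong to blood, was 92.7–95.0, 366–584 and 877–1130.

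mRNAs of the proteasome took a smaller share of the CELF2-KI pull-down than of either control. The 51 members held 0.127–0.173% of protein-coding counts in CELF2-KI RIP, 0.232–0.3% in the IgG pull-down and 0.307–0.312% in input. On the TMM scale the 48 proteasome genes summed to 1942, 1623 and 1641 CPM in CELF2-KI RIP, to 2125, 2236 and 2813 CPM in the IgG pull-down and to 2670, 2658 and 2713 CPM in input. The 3 groups did not all separate in these sums, because IgG replicate 3 lay above every input library. The sums of CELF2-KI RIP lay below those of all 6 controls. Input was an aliquot of the cytoplasmic fraction that was also used for the pull-downs, and these bulk libraries do not separate its cell types.

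Of the 51 members, 50 passed the filter of at least 0.5 CPM in at least 3 libraries. The exception was *Psma8*, the alpha subunit known from the testis, with 0, 5 and 0 counts in CELF2-KI RIP, 0, 11 and 0 in the IgG pull-down and 17–24 in input. A change was called with edgeR's quasi-likelihood test at a Benjamini-Hochberg false discovery rate (FDR) under 0.01 over 15267 genes, with at least 2-fold as the first rule and with any fold as the second. "Rose" and "fell" are used for changes that met the second rule, and SE is the standard error of the log2 fold change. Among the alternatives named beside results, curated transcripts are those left when predicted RefSeq models are dropped, and version-matched transcripts are those whose version is the one in the gene table.

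Against the IgG pull-down, 19 of the 50 members were at least 2-fold lower in CELF2-KI RIP, beside 13.6% of all genes tested, and 2 were at least 2-fold higher, beside 13.4%. At any fold 22 fell, beside 19.2%, and 4 rose, beside 22.9%. The count of 2 was 1 without IgG replicate 1 or input replicate 2 and 3 without CELF2-KI RIP replicate 3 or IgG replicate 3. The median log2 fold change was -0.73 for the members and -0.06 for all genes. Against input, 24 members were at least 2-fold lower, beside 15.5%, and 1 was higher, beside 14.6%, while 31 fell at any fold (20.1% of all genes) and 2 rose (26.8%). The median was -1.21 for the members and 0.19 for all genes.

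Both controls were passed in the downward direction by 18 members, beside 9.54% of all genes, and in the upward direction by 0 members, beside 7.58%. DESeq2 also gave 0, the count at any fold was 1 (*Psme3*), beside 17.4%, and 3 members were higher than both controls at an unadjusted p under 0.05, beside 24.2%. The 3 CELF2-KI RIP libraries were all below the 6 control libraries for 26 members, beside 19.9% of all genes, and above them for 4, beside 25.2%. These comparisons share the CELF2-KI RIP libraries, so the second is not a repeat of the first.

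**Figure D1:**
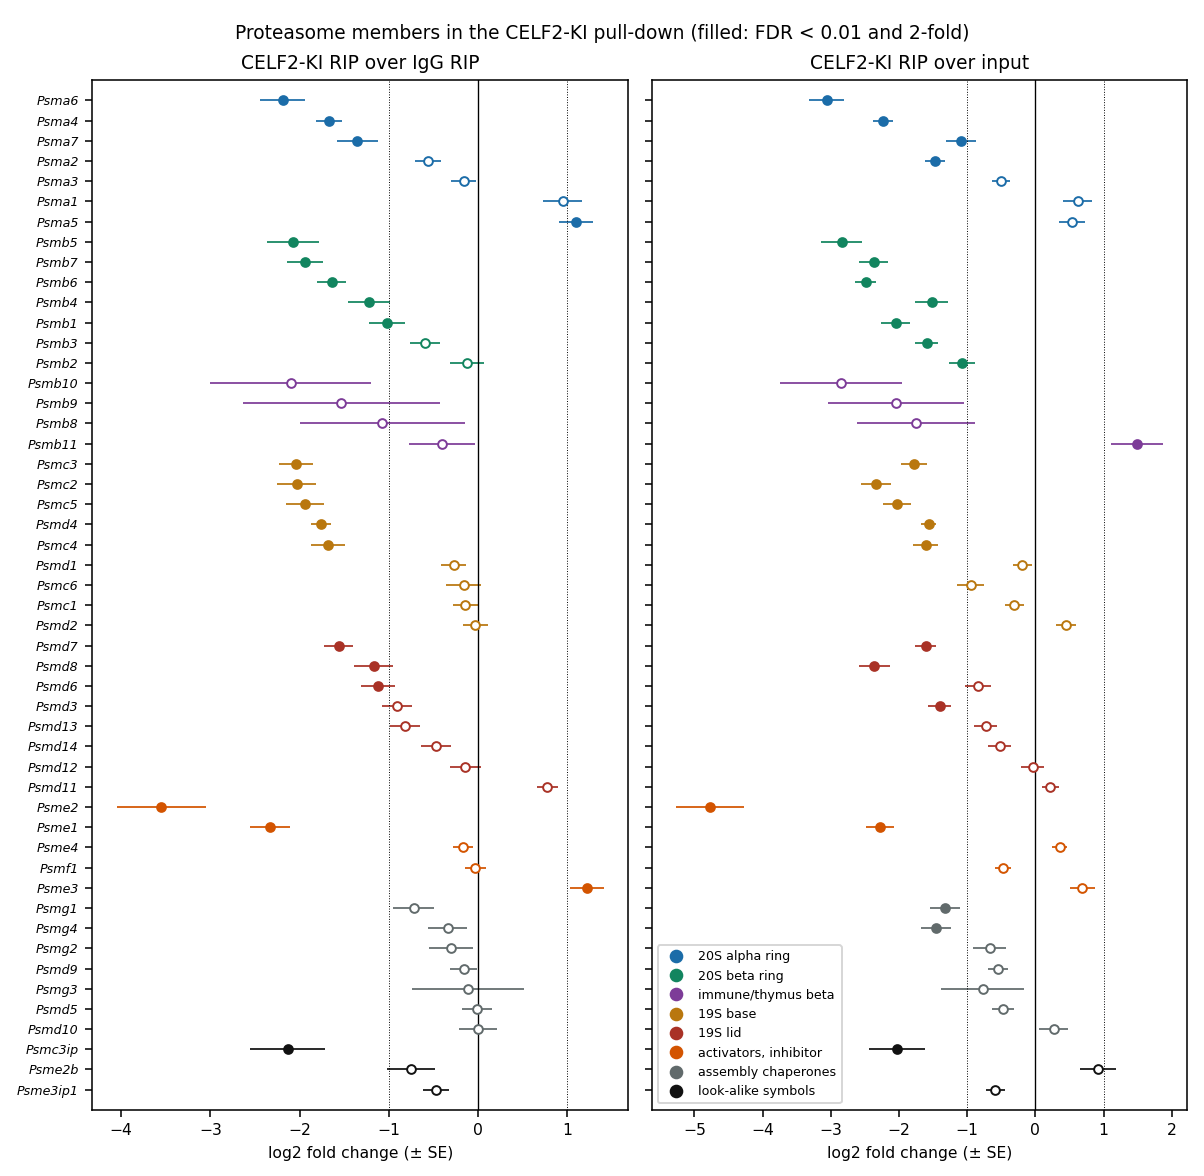
Log2 fold change of the 50 tested members in CELF2-KI RIP over IgG RIP (left) and over input (right), with bars for the SE from edgeR, dotted lines at 2-fold, and filled points for members at an FDR under 0.01 and at least 2-fold. Most points lie left of 0 (46 on the left panel and 41 on the right), Psme3, Psma5, Psma1 and Psmd11 lie right of it in both (Psmd11 over input is at -0.24 with total counts), and the 7 beta ring genes are all filled on the right.

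The beta ring, which carries the proteolytic sites, was low against input. All 7 genes fell at least 2-fold below input, with log2 fold changes from -2.84 to -1.08, and 5 of the 7 fell at least 2-fold below the IgG pull-down. *Psmb5*, the subunit with chymotrypsin-like activity, stood at 13, 6.39 and 5.98 CPM in CELF2-KI RIP, at 28.0, 33.7 and 45.3 CPM in the IgG pull-down and at 61.2, 63.5 and 57.6 CPM in input. Its groups did not overlap, and it fell below the IgG pull-down (log2 fold change -2.07, SE 0.29, FDR 0.000192) and below input (-2.84, SE 0.30, FDR 2.75e-05).

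The other catalytic genes kept the same order of groups, with input highest and CELF2-KI RIP lowest. *Psmb7*, with trypsin-like activity, stood at 21.6, 14.6 and 11.9 CPM in CELF2-KI RIP, at 53.7, 60.5 and 70.4 CPM in the IgG pull-down and at 82.3, 84.0 and 81.5 CPM in input, which gave log2 fold changes of -1.94 (SE 0.20, FDR 3.34e-05) over the IgG pull-down and -2.37 (SE 0.21, FDR 1.03e-05) over input. *Psmb6*, with caspase-like activity, stood at 13.5–18.0 CPM, at 39.7–55.1 CPM and at 82.3–87.9 CPM in the same order, a log2 fold change of -1.64 (SE 0.16, FDR 2.44e-05) and -2.49 (SE 0.16, FDR 2.17e-06). No library of any group overlapped another group for either gene.

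Among the beta subunits without a proteolytic site, *Psmb1* and *Psmb4* fell below both controls and *Psmb2* and *Psmb3* below input. *Psmb4*, whose controls overlapped each other, stood at 24–46.1 CPM in CELF2-KI RIP, 60.5–98.3 CPM in the IgG pull-down and 86.7–106 CPM in input (log2 fold change -1.22, SE 0.24, FDR 0.00163 over the IgG pull-down and -1.52, SE 0.24, FDR 0.000358 over input). *Psmb1* stood at 12.7–21.9, 29.7–40.3 and 66.5–70.6 CPM, and its log2 fold change of -1.02 (SE 0.20, FDR 0.00178) over the IgG pull-down lay at the 2-fold limit. Without CELF2-KI RIP replicate 2, CELF2-KI RIP replicate 3 or IgG replicate 3 it was -0.95, -0.86 and -0.87. Over input it was -2.05 (SE 0.21, FDR 2.35e-05). *Psmb2* overlapped between CELF2-KI RIP (18.4–25 CPM) and the IgG pull-down (18.4–27.7 CPM).

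The immune and thymus beta subunits, which replace the catalytic subunits in cells of the immune system or in the thymus, had few counts in the pull-downs. *Psmb8*, the counterpart of *Psmb5*, had 5, 5 and 8 counts in CELF2-KI RIP, 21, 19 and 0 in the IgG pull-down and 91, 191 and 91 in input. *Psmb9*, the counterpart of *Psmb6*, had 2, 3 and 0 counts, then 11, 5 and 0, then 37, 55 and 31. *Psmb10*, the counterpart of *Psmb7*, had 36, 0 and 1 counts, then 66, 43 and 63, then 435, 687 and 447. None of these 3 genes met the FDR in any comparison in the fit of all 9 libraries, and they had wide errors, with log2 fold changes over the IgG pull-down of -1.07 (SE 0.92), -1.53 (SE 1.10) and -2.10 (SE 0.90). With only the libraries of CELF2-KI RIP and input in the fit, all 3 fell below input (*Psmb8* -1.98, FDR 0.00109, *Psmb9* -2.26, FDR 0.00785, and *Psmb10* -3.07, FDR 0.00957).

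For *Psmb10*, 1 library set the value. Without CELF2-KI RIP replicate 1 the group held 1 count, and the fitted log2 fold changes, which then hang on the prior count and bound nothing, were -6.58 over the IgG pull-down (FDR 3.46e-05) and -7.33 over input (FDR 1.3e-05). For *Psmb8* the library was IgG replicate 3, without which the log2 fold change was -1.67 over the IgG pull-down (FDR 0.00777) and -1.76 over input (FDR 0.00209). *Psmb11*, the thymus subunit, ran the other way. It stood at 3.44, 7.31 and 2.95 CPM in CELF2-KI RIP, at 6.32, 7.73 and 4.16 CPM in the IgG pull-down and at 1.73, 1.74 and 1.39 CPM in input. Both pull-downs lay above input, with log2 fold changes of 1.49 (SE 0.38, FDR 0.00608) and 1.90 (SE 0.38, FDR 0.00351), and they overlapped each other. The rise of CELF2-KI RIP over input missed the FDR without CELF2-KI RIP replicate 2 (0.98, FDR 0.0307) or without input replicate 1, 2 or 3 (FDR 0.0196, 0.0261 and 0.0274). The rise of the IgG pull-down over input missed it without IgG replicate 1 or 2 (FDR 0.0117 and 0.0136) or without input replicate 1, 2 or 3 (FDR 0.0165, 0.0149 and 0.0195). Both rises missed it with curated (FDR 0.0239 and 0.0137) and version-matched transcripts (FDR 0.0205 and 0.0104), and that of CELF2-KI RIP also with total counts (1.01, FDR 0.0364) and upper quartile (1.25, FDR 0.0155).

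Genes of the interferon response, which induces the immune subunits, were measured beside them. Their 7 markers summed to 24.7–27.8 CPM in CELF2-KI RIP, 33.3–45.3 CPM in the IgG pull-down and 47.0–50.3 CPM in input. Against the IgG pull-down 2 of the 7 fell, beside 19.2% of all genes, and 0 rose, beside 22.9%. Against input 2 fell, beside 20.1%, and 1 rose, beside 26.8%, with a median log2 fold change of 0.20. *B2m*, the light chain of class I MHC, fell against the IgG pull-down (log2 fold change -2.28, FDR 0.0001). It had means of 1.15 CPM in CELF2-KI RIP, 5.63 CPM in the IgG pull-down and 27.6 CPM in input, which weigh on the sums. *Irf1* rose over input (0.78, FDR 0.00734). The summed microglia markers were 91.5–125, 53.6–72.1 and 117–154 CPM. Of the 5 that were tested, 1 rose against the IgG pull-down, beside 22.9% of all genes, and 1 fell, beside 19.2%. Over input 2 rose, beside 26.8%, and 3 fell, beside 20.1%. Of these rises 1 was *Csf1r*, at 0, 2.93 and 3.39 CPM in CELF2-KI RIP and at 0 CPM in every input library. Its log2 fold change of 9.09 (SE 2.34) over input therefore lies at the floor of the counts. Over the IgG pull-down *Cx3cr1* rose (log2 fold change 1.42, FDR 8.15e-05) and *C1qb* fell (-2.25, FDR 1.72e-05). *P2ry12*, which did not pass the filter, was on average at 0 CPM in both pull-downs and at 1.20 CPM in input. Their part in the result was not tested.

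**Figure D2:**
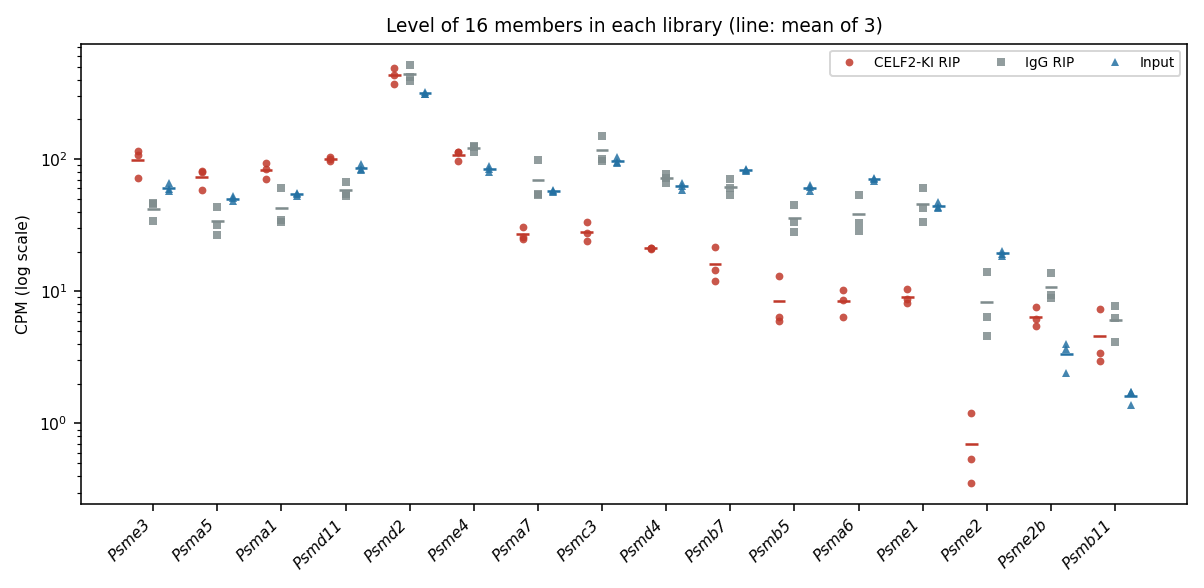
CPM on a log axis for 16 members in each of the 3 CELF2-KI RIP, 3 IgG RIP and 3 input libraries, with a line at the mean of each group. The first 4 genes have all CELF2-KI RIP points above both controls, and those from Psma7 to Psme2 have all of them below.

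The alpha ring was split. Against the IgG pull-down 4 of its 7 tested genes fell, 3 of them at least 2-fold, and 2 rose, and against input 5 fell, 4 of them at least 2-fold. *Psma6* stood at 10.3, 8.55 and 6.34 CPM in CELF2-KI RIP, at 28.7, 32.8 and 53.8 CPM in the IgG pull-down and at 70.3, 68.3 and 72.2 CPM in input. With its groups apart, it fell below the IgG pull-down (log2 fold change -2.19, SE 0.25, FDR 5.86e-05) and below input (-3.06, SE 0.26, FDR 9.04e-06), the largest fall of the constitutive core in either comparison. *Psma4* stood at 8.48–9.55, 23.7–31.6 and 40.2–44.6 CPM (-1.67, SE 0.15, FDR 1.67e-05 and -2.23, SE 0.15, FDR 2.72e-06). Its calls over the IgG pull-down and over input were lost with curated (-3.26, FDR 0.146 and -4.58, FDR 0.0594) and with version-matched transcripts (-3.24, FDR 0.125 and -4.62, FDR 0.0441).

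*Psma5* and *Psma1* were the alpha genes that rose. *Psma5* stood at 81.0, 80.2 and 58.5 CPM in CELF2-KI RIP, at 26.9, 31.9 and 43.4 CPM in the IgG pull-down and at 50.8, 52.2 and 48.1 CPM in input. No control library reached the lowest of CELF2-KI RIP, with a log2 fold change of 1.10 (SE 0.19, FDR 0.000693) over the IgG pull-down. Over input the log2 fold change was 0.54 (SE 0.19) and missed the threshold (FDR 0.0277), except without IgG replicate 3 (FDR 0.00699). Without IgG replicate 1 it was 0.95 over the IgG pull-down, short of 2-fold.

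*Psma1* stood at 93.5, 84.5 and 70.6 CPM in CELF2-KI RIP, at 34.4, 33.7 and 60.8 CPM in the IgG pull-down and at 55.1, 52.7 and 54.5 CPM in input. Again no control library reached the lowest of CELF2-KI RIP. It rose over the IgG pull-down (log2 fold change 0.95, SE 0.22, FDR 0.00404), and over input its log2 fold change was 0.62 (SE 0.21, FDR 0.0292). The rise over the IgG pull-down missed the FDR without CELF2-KI RIP replicate 1 or 2, IgG replicate 1 or 2, or input replicate 2 (log2 fold change 0.80–0.93), and the one over input met it without IgG replicate 3 (0.62, FDR 0.00114).

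*Psma7*, an alpha gene of 2 transcript models in the table, differed between groups in its make-up as well as in its level. Its total stood at 25, 30.9 and 25.6 CPM in CELF2-KI RIP, at 54.3, 53.7 and 99.3 CPM in the IgG pull-down and at 57.6, 56.9 and 58.5 CPM in input, which gave log2 fold changes of -1.35 (SE 0.23, FDR 0.000611) over the IgG pull-down and -1.09 (SE 0.22, FDR 0.00193) over input. CELF2-KI RIP lay below both controls, which overlapped each other, and IgG replicate 3 stood far above the other two of its group. Without that library the change over the IgG pull-down was at the 2-fold limit (-1.0), and without CELF2-KI RIP replicate 3 the one over input had an FDR of 0.0103.

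The main model of *Psma7* had 10.0–14.0 CPM in CELF2-KI RIP, 40.9–82.0 CPM in the IgG pull-down and 52.5–54.4 CPM in input. The alternative model had 10.9–20.9, 10.7–17.3 and 3.22–5.10 CPM. The alternative model therefore took 43.7, 67.6 and 60.9% of the gene's counts in CELF2-KI RIP, 24.7, 20 and 17.4% in the IgG pull-down and 5.60, 7.79 and 8.71% in input, and no group overlapped another. The split of reads between transcripts is an estimate of the pseudoaligner, and it was not tested here.

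**Figure D3:**
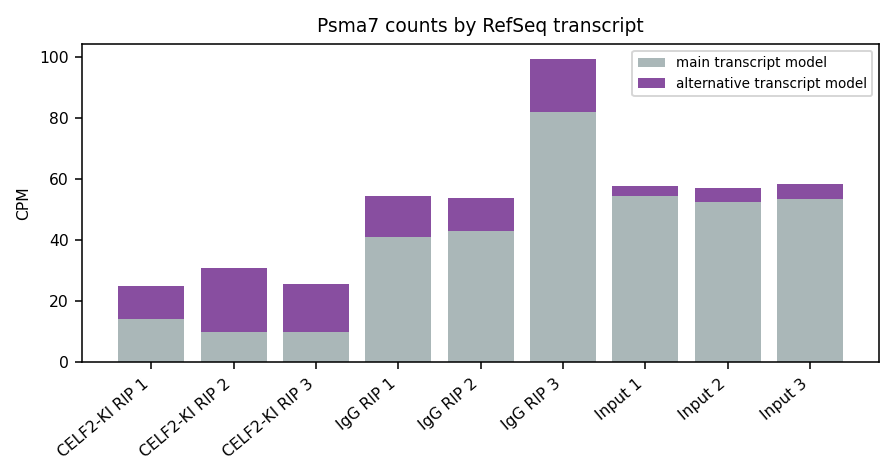
CPM of Psma7 in each of the 9 libraries, with the main and the alternative RefSeq transcript model stacked. The alternative model is 43.7–67.6% of each CELF2-KI RIP bar and 5.60–8.71% of each input bar.

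The 19S base, which holds the ATPase ring and the large scaffold subunits, was split between genes that fell below the IgG pull-down and genes that did not pass. Against the IgG pull-down 5 of its 9 genes fell, all at least 2-fold, and 0 rose, and the same 5 fell at least 2-fold below input. *Psmc3*, an ATPase of the ring, stood at 33.4, 24 and 27.4 CPM in CELF2-KI RIP, at 97.1, 101 and 151 CPM in the IgG pull-down and at 92.9, 94.6 and 103 CPM in input. Its CELF2-KI RIP libraries lay far below both controls, which overlapped each other, and it fell below the IgG pull-down (log2 fold change -2.04, SE 0.19, FDR 1.89e-05) and below input (-1.78, SE 0.19, FDR 3.18e-05).

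The ATPases *Psmc2*, *Psmc4* and *Psmc5* had log2 fold changes over the IgG pull-down of -2.03 (SE 0.22), -1.68 (SE 0.19) and -1.94 (SE 0.21), and over input of -2.34, -1.61 and -2.03. *Psmd4*, a ubiquitin receptor, had the narrowest spread of the base. It stood at 21, 21.1 and 21.2 CPM in CELF2-KI RIP, at 71.6, 65.9 and 77.0 CPM in the IgG pull-down and at 58.4, 62.3 and 66.1 CPM in input, which gave log2 fold changes of -1.76 (SE 0.11, FDR 6.22e-06) over the IgG pull-down and -1.56 (SE 0.11, FDR 3.82e-06) over input.

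The other 4 base genes did not pass the test against the IgG pull-down. The ATPases *Psmc1* and *Psmc6* had log2 fold changes over the IgG pull-down of -0.14 (SE 0.14) and -0.16 (SE 0.20), and the scaffolds *Psmd1* and *Psmd2* of -0.27 (SE 0.14) and -0.03 (SE 0.14). *Psmd2*, the member with the highest counts, stood at 493, 369 and 433 CPM in CELF2-KI RIP, at 387, 418 and 518 CPM in the IgG pull-down and at 311, 313 and 321 CPM in input. Its pull-downs overlapped, and both lay above input, with log2 fold changes of 0.45 (SE 0.14, FDR 0.0159) and 0.49 (SE 0.14, FDR 0.0187) that missed the threshold. *Psmc6* fell below input (-0.95, SE 0.20, FDR 0.00178). The ATPases form 1 ring, and their log2 fold changes over the IgG pull-down ran from -2.04 to -0.14.

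In the 19S lid, the deubiquitinating cap, 5 of 8 genes fell and 1 rose against the IgG pull-down, and 5 fell and 0 rose against input. *Psmd7*, the partner of the deubiquitinase, stood at 17.6, 15.1 and 15.8 CPM in CELF2-KI RIP, at 40.4, 46.6 and 56.3 CPM in the IgG pull-down and at 46.5, 46.7 and 55.1 CPM in input. Its controls overlapped each other and not CELF2-KI RIP (log2 fold change -1.56, SE 0.16, FDR 2.58e-05 over the IgG pull-down and -1.61, SE 0.16, FDR 1.85e-05 over input). *Psmd14*, the deubiquitinase itself, overlapped with the IgG pull-down (27.3–42.9 against 42.0–52.4 CPM) and did not pass (log2 fold change -0.47, SE 0.17, FDR 0.0426).

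The lid genes *Psmd8* and *Psmd11* had the lowest and the highest log2 fold change of the lid over input. *Psmd8* stood at 24.3, 14.4 and 13.5 CPM in CELF2-KI RIP, at 35.2, 35.4 and 47.2 CPM in the IgG pull-down and at 88.8, 83.7 and 96.5 CPM in input, with all groups apart. It fell below the IgG pull-down (log2 fold change -1.17, SE 0.22, FDR 0.0013) and below input (-2.36, SE 0.23, FDR 1.84e-05). *Psmd11*, a lid subunit that contacts the core, stood at 101, 103 and 97.1 CPM in CELF2-KI RIP, at 54.8, 52.6 and 67.7 CPM in the IgG pull-down and at 84.5, 82.2 and 92.2 CPM in input. It rose over the IgG pull-down (0.78, SE 0.12, FDR 0.000343) with the groups apart, and over input it had a log2 fold change of 0.22 (SE 0.12, FDR 0.132), or -0.24 with libraries scaled by total counts. The rise over the IgG pull-down missed the FDR with total counts (0.42, FDR 0.0121), with curated transcripts (0.37, FDR 0.0424) and with version-matched transcripts (0.39, FDR 0.0377).

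**Figure D4:**
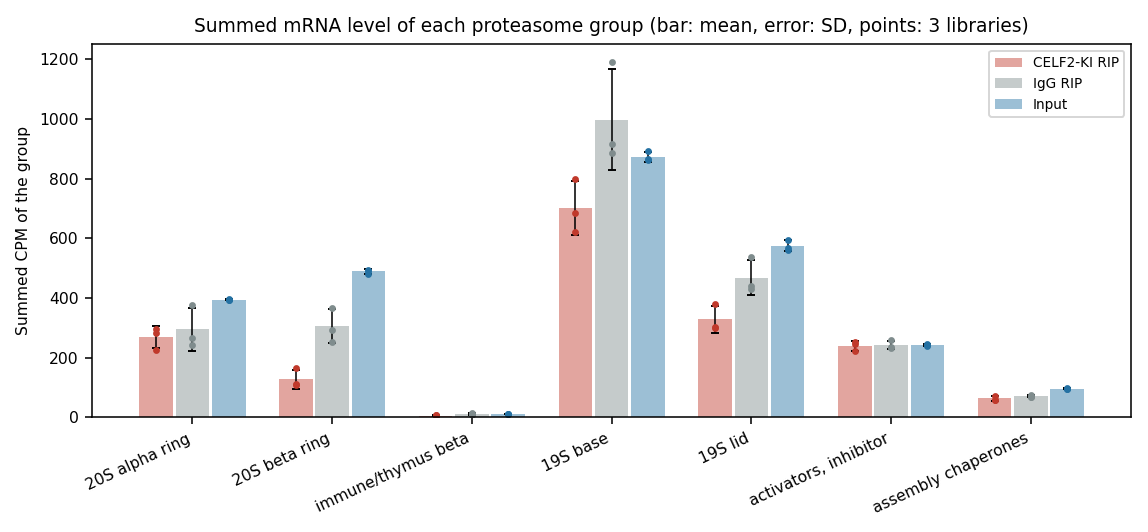
Summed CPM of the genes of each proteasome group in CELF2-KI RIP, IgG RIP and input, with bars for the mean of 3 libraries, error bars for the SD and points for the libraries. The beta ring and the lid show CELF2-KI RIP below IgG RIP below input, and the activators and inhibitor are level (240, 242 and 242 CPM).

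Sums over groups showed the beta ring apart from the rest of the core. It summed to 128 ± 31.8 CPM in CELF2-KI RIP, 305 ± 57.3 CPM in the IgG pull-down and 489 ± 8.15 CPM in input (SD, n = 3), so that the IgG pull-down held 2.39 times and input 3.83 times the CELF2-KI RIP sum. The alpha ring summed to 268 ± 36.9, 295 ± 71.1 and 395 ± 1.59 CPM, and its CELF2-KI RIP libraries (226–296 CPM) overlapped those of the IgG pull-down (243–376 CPM). The base summed to 702 ± 90.7, 998 ± 169 and 873 ± 15.8 CPM and the lid to 328 ± 44.6, 468 ± 58.9 and 575 ± 18.5 CPM. A sum is weighted to the genes with the most counts, which in the base is *Psmd2*.

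Among the activators, which open the core without the 19S cap, *Psme1* and *Psme2* fell and *Psme3* rose. *Psme1* and *Psme2* are known as the interferon-inducible pair that forms 1 cap, and *Psme3* as a nuclear activator that forms a cap by itself. *Psme3* (mm10, chr11:101316213-101323537) stood at 72.5, 115 and 108 CPM in CELF2-KI RIP, at 46.1, 46.7 and 34.2 CPM in the IgG pull-down and at 57.4, 59.8 and 65.6 CPM in input. Its lowest CELF2-KI RIP library was above the highest control, and it had the largest rise over the IgG pull-down of all members (log2 fold change 1.22, SE 0.19, FDR 0.000351).

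Over input *Psme3* rose by less (log2 fold change 0.69, SE 0.18, FDR 0.00817). With the replicate number as a block, although pairing by number was not established, the value was 0.68 (FDR 0.0155). It met the FDR without CELF2-KI RIP replicate 1 (0.87, FDR 0.00096) or IgG replicate 3 (0.69, FDR 0.00383), and missed it without any other library (0.56–0.74, FDR 0.011 to 0.0569). The call also depended on the scaling and the libraries in the fit. It was lost with total counts (0.22, FDR 0.301), upper quartile (0.45, FDR 0.0541) or DESeq2 size factors (0.55, FDR 0.0211), without a filter on low counts (0.57, FDR 0.0197), with only the 2 groups compared (0.46, FDR 0.0346) and with curated transcripts (0.66, FDR 0.0299).

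*Psme1* stood at 10.4, 8.78 and 8.21 CPM in CELF2-KI RIP, at 33.7, 42.9 and 60.8 CPM in the IgG pull-down and at 43.5, 42.7 and 47.4 CPM in input. It fell below the IgG pull-down (log2 fold change -2.33, SE 0.22, FDR 1.79e-05) and below input (-2.28, SE 0.21, FDR 1.62e-05), and the controls overlapped each other. *Psme2* (chr14:55587440-55591101) had 15, 7 and 4 counts in CELF2-KI RIP, 73, 64 and 194 in the IgG pull-down and 1217, 1833 and 1147 in input, which is 0.357–1.20, 4.57–13.9 and 18.6–20.2 CPM. Its log2 fold changes of -3.55 (SE 0.50, FDR 0.000196) over the IgG pull-down and -4.77 (SE 0.50, FDR 2.81e-05) over input were the largest falls of all members.

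The size of the *Psme2* change depends on a copy of the gene. *Psme2b* (chr11:48945345-48946410), whose symbol marks it as a copy of *Psme2*, stood at 5.44, 7.55 and 6.16 CPM in CELF2-KI RIP, at 13.8, 9.32 and 8.96 CPM in the IgG pull-down and at 3.66, 4.02 and 2.41 CPM in input. It was highest in the IgG pull-down and lowest in input, with a log2 fold change of 1.67 (SE 0.27, FDR 0.00114) for the IgG pull-down over input. In CELF2-KI RIP it fell below the IgG pull-down with total counts (-1.12, FDR 0.00473) or upper-quartile scaling (-1.01, FDR 0.0086), and not with TMM (-0.75, FDR 0.0362). Reads of close copies cannot be placed with certainty, so the genes were also summed. The sum stood at 6.64, 8.08 and 6.52 CPM in CELF2-KI RIP, at 18.3, 15.7 and 22.9 CPM in the IgG pull-down and at 23.0, 24.2 and 21 CPM in input. It fell below both controls, with log2 fold changes of -1.42 (FDR 9.52e-05) and -1.68 (FDR 2.92e-05), and the value for *Psme2* alone is uncertain to that extent. Of the 2 transcript models of *Psme2*, 1 was at 0 CPM in all 3 CELF2-KI RIP libraries and in IgG replicates 1 and 2, at 12.6 CPM in IgG replicate 3 and at 7.62–9.27 CPM in input.

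*Psme4*, an activator known from spermatogenesis and DNA repair, stood at 113, 96.9 and 113 CPM in CELF2-KI RIP, at 126, 114 and 124 CPM in the IgG pull-down and at 89.1, 83.8 and 79.3 CPM in input. The IgG pull-down rose over input (log2 fold change 0.53, SE 0.11, FDR 0.0037), and CELF2-KI RIP lay between them (-0.17, SE 0.11, FDR 0.196 over the IgG pull-down and 0.36, SE 0.11, FDR 0.0146 over input). The rise of the IgG pull-down missed the FDR with total counts (0.44, FDR 0.0189), curated (0.35, FDR 0.0879) or version-matched transcripts (0.29, FDR 0.145), and without IgG replicate 1 (0.51, FDR 0.0139) or without input replicate 1, 2 or 3 (FDR 0.016, 0.0228 and 0.0234). With total counts or upper-quartile scaling *Psme4* fell below the IgG pull-down in CELF2-KI RIP (-0.54, FDR 0.00426 and -0.44, FDR 0.00621), and over input it met the FDR without CELF2-KI RIP replicate 2 (0.43, FDR 0.00572). *Psmf1*, an inhibitor of the core in the test tube, had a log2 fold change of -0.03 (SE 0.12) between the pull-downs and fell below input (-0.47, SE 0.12, FDR 0.00727).

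No assembly chaperone passed the test against the IgG pull-down. Their 7 log2 fold changes ran from -0.72 to 0.00, with a median of -0.16. Between the pull-downs 6 of the 7 overlapped, beside 18 of the 50 tested members, and the share of all genes was not counted. The base chaperones *Psmd5*, *Psmd9* and *Psmd10* had log2 fold changes of -0.01 (SE 0.17), -0.16 (SE 0.15) and 0.00 (SE 0.21). Against input 3 of the 7 fell, 2 of them at least 2-fold. *Psmg4*, a chaperone of the alpha ring, stood at 3.36, 2.46 and 3.30 CPM in CELF2-KI RIP, at 4.25, 3.27 and 3.94 CPM in the IgG pull-down and at 7.99, 8.93 and 7.96 CPM in input, so that both pull-downs lay below input (-1.45, SE 0.22, FDR 0.000241 and -1.11, SE 0.21, FDR 0.00281) and overlapped each other. The fall of the IgG pull-down below input missed the FDR with curated (-0.99, FDR 0.0224) and version-matched transcripts (-1.05, FDR 0.0126).

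Of the other look-alike symbols, *Psmc3ip*, a partner of the meiotic recombinases, fell below the IgG pull-down (log2 fold change -2.13, SE 0.42, FDR 0.00156) and below input (-2.03, SE 0.41, FDR 0.00164) at levels of 0.88–1.07, 1.86–5.75 and 3.62–4.17 CPM. Both calls were lost with curated (-3.14, FDR 0.0302 and -3.05, FDR 0.0323) and with version-matched transcripts (-3.12, FDR 0.0207 and -3.09, FDR 0.0201). *Psme3ip1*, which binds the Psme3 protein, fell below input (-0.59, SE 0.14, FDR 0.00497). Without the 3 look-alike symbols 17 members were lower than both controls.

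The control pull-down differed from input for fewer members. The IgG pull-down was at least 2-fold lower than input for 4 of the 50 members, beside 5.0% of all genes, and higher for 2, beside 6.79%, and at any fold 9 fell (11.3%) and 3 rose (12%). The 4 were *Psmb1*, *Psmb3*, *Psmd8* and *Psmg4*, with log2 fold changes from -1.19 to -1.01, and the 2 were *Psmb11* and *Psme2b*. The median was -0.38 for the members and 0.00 for all genes. The count of 4 rested on single libraries, since it was 1 without IgG replicate 1 or 2, 8 without IgG replicate 3, 2 without input replicate 1 and 0 without input replicate 3, and the count of 2 was 1 without IgG replicate 1 or 2 or any input library. For 4 members, beside 3.43% of all genes, CELF2-KI RIP fell below the IgG pull-down and the IgG pull-down fell below input. Of the base genes 1 of 9 fell below input in the IgG pull-down, and of the beta ring 4 of 7.

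Genes that work with the proteasome but lie outside its symbols did not share 1 direction. Of 11 tested genes for proteasome-bound and assembly proteins, 3 rose against the IgG pull-down, beside 22.9% of all genes, and 3 fell, beside 19.2%. These counts lie near the shares of all genes. *Sem1*, a small lid subunit whose symbol lies outside the rule, stood at 4.16, 3.93 and 3.84 CPM in CELF2-KI RIP, at 12.9, 12.6 and 12 CPM in the IgG pull-down and at 18.4, 22.4 and 20 CPM in input (log2 fold change -1.65, SE 0.15, FDR 1.7e-05 over the IgG pull-down and -2.35, SE 0.15, FDR 1.87e-06 over input). *Adrm1*, a ubiquitin receptor of the base, and *Uchl5*, the deubiquitinase it holds, fell by 0.81 (FDR 0.00178) and 1.09 (FDR 0.00197) on the log2 scale against the IgG pull-down. *Zfand5*, which activates the proteasome in wasting muscle, and *Fbxo7*, an F-box protein that binds the product of *Psmf1*, rose by 1.01 (FDR 4.27e-05) and 1.19 (FDR 0.000281), and both rose over input (0.63, FDR 0.000595 and 0.64, FDR 0.00816).

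*Nfe2l1*, the transcription factor that raises proteasome genes when the proteasome is impaired, stood at 420, 516 and 433 CPM in CELF2-KI RIP, at 176, 187 and 177 CPM in the IgG pull-down and at 282, 294 and 321 CPM in input. It rose over the IgG pull-down (log2 fold change 1.34, SE 0.11, FDR 1.15e-05) and over input (0.61, SE 0.11, FDR 0.000755), with no overlap between the groups. *Ddi2*, the protease that activates the Nfe2l1 protein, rose over the IgG pull-down (0.78, FDR 0.00156) and over input (1.14, FDR 0.000122). *Ngly1*, the enzyme that removes its glycans, had log2 fold changes of 0.02 (FDR 0.947) and -0.04 (FDR 0.882). The alternatives were not examined for genes outside the symbols, such as *Nfe2l1*, *Ddi2*, *Zfand5*, *Fbxo7* and *Nploc4*. Total-count and upper-quartile scaling moved the median of all genes over input by -0.46 and -0.24, so how far their rises over input depend on scaling is not known.

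*Ubb*, a ubiquitin precursor, and *Uba1*, the main ubiquitin-activating enzyme, fell against the IgG pull-down (log2 fold change -1.31, FDR 0.000647 and -1.33, FDR 0.000355). Of the segregase that feeds substrates to the proteasome, *Nploc4* rose over the IgG pull-down (1.05, FDR 2.01e-05) and over input (0.96, FDR 2.62e-05), and its partners *Vcp* and *Ufd1* did not pass against the IgG pull-down (-0.46, FDR 0.0151 and -0.18, FDR 0.357). Of 6 genes for shuttles that carry ubiquitinated proteins, 2 rose against the IgG pull-down, beside 22.9% of all genes, and 0 fell, beside 19.2%.

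Gene span and cell type markers were set beside these results. The 47 tested proteasome genes had a median genomic span of 11.6 kb, beside 24.6 kb for all genes tested, and the shortest of 10 equal groups of genes (up to 4.42 kb), which held 11 members, had a median log2 fold change of -0.66 over the IgG pull-down and -0.68 over input. Over the 47 genes the Spearman correlation of span with the log2 fold change was 0.443 over the IgG pull-down and 0.406 over input. Over all genes it was 0.203 and 0.277. For the IgG pull-down over input it was 0.0467 over the 47 genes and 0.236 over all genes. These are values across genes that share the same 9 libraries. Transcript lengths were not at hand. By RefSeq spans *Psma4*, *Psmd1*, *Psmd10*, *Psme1*, *Psme4*, *Psmf1*, *Psmc3ip*, *Psme2b* and *Psme3ip1* overlap another protein-coding gene and *Psma3* a long noncoding RNA gene, and without a stated strand setting their counts are uncertain to that extent. Against the IgG pull-down 5 of 5 erythroid markers fell, with a median of -2.21, and 4 of 6 excitatory neuron markers rose, with a median of 0.93. The other cell type lists had medians nearer to that of all genes. These were 0.03 for radial glia and astrocytes, 0.04 for endothelium, -0.40 for oligodendrocyte precursors and -0.55 for microglia. The 7 interferon response genes, which mark no cell type, had a median of -1.01. The part of span and of these cell types in the results was not tested.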

How the data were processed

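RNA was measured in 9 libraries, 3 per group, from the cytoplasmic fraction of P0 cortex. Per the labels, rRNA was depleted, libraries were directional, and reads were handled with FastQC 0.11.9, fastp 0.23.4 and Ribodetector 0.3.1. The authors deposited estimated counts per transcript from kallisto 0.51.1, not normalized for depth or length, and their processing notes name the mm10 build. The paper names an Ensembl transcriptome while the rows are RefSeq transcripts, and the strand setting of the counting is not given in the sources used here. Replicates of a group differed by more than sampling noise. The p-values set group differences against a spread estimated from these 9 libraries with information shared across genes.

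Rows were matched to protein-coding genes by transcript, ignoring the version (68249 of 107384 rows), with a RefSeq gene table of GRCm38.p6, summed per gene and rounded. The 15267 genes that reached 0.5 CPM in 3 or more libraries entered 1 fit of all 9 libraries with edgeR 4.0.16 (TMM scaling, quasi-likelihood test, Benjamini-Hochberg adjustment over all tested genes) in R 4.3.3, after the paper's FDR under 0.01 and 2-fold rule. Its CPM threshold is not stated. DESeq2 1.42.0 served as an alternative, as did other scalings, filters and transcript sets and leaving out each library, limma 3.58.1 was loaded by edgeR, and tables and plots used Python 3.11.15, pandas 2.3.3 and matplotlib 3.10.9. The fit was also run on simulated data with few genes changed and a fixed spread, which does not test the scaling of these libraries. Protein-coding counts were 9347321 to 78514685 per library. Counting error alone does not cover duplicates, since reads carry no molecular identifiers.

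Members and lists were chosen with earlier results of these data known. Genes were named if among the 3 highest or lowest log2 fold changes in a comparison, if lower or higher than both controls, or if in a fixed set of paralogs. The part of the rule on the highest level per kb was dropped, since no lengths were at hand. *Psmd2*, *Psmd11*, *Psmd14*, *Psma1*, the remaining base genes and chaperones and the single genes outside the symbols were named after their values were seen. Some genes of the list of ubiquitin genes and activating enzymes, and with them its counts, are not reported here.

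Replicate numbers were taken from the labels. Deviations from group means correlated between same-numbered libraries across 15267 genes by 0.110, 0.117 and 0.122 for CELF2-KI RIP and input, by -0.056, 0.0429 and 0.0139 for CELF2-KI RIP and IgG RIP, and by 0.0305, 0.0646 and 0.0384 for IgG RIP and input, so that numbers pair CELF2-KI RIP with input. The block was an alternative.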

Additional observations from a re-analysis of the deposited data

How the results depend on the processing

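The count of members lower than both controls was 13 to 22 over all alternatives (16–21 when a library was left out), and 0 were higher than both in each of them. Total-count and upper-quartile scaling moved the median of all genes by -0.37 and -0.26 for CELF2-KI RIP over IgG RIP and by -0.46 and -0.24 over input, and 42 and 41 of 50 members lay below it. Members at least 2-fold higher in CELF2-KI RIP than in IgG RIP numbered 0 with total counts, upper-quartile scaling, glmTreat or version-matched transcripts and 1 with curated transcripts, and against input 0 in all 5. The median of members was -1.10 over IgG RIP and -1.67 over input with total counts, and over input -1.45 with upper quartile, -1.43 with only the 2 groups compared and -1.52 with version-matched transcripts. For IgG RIP over input, glmTreat gave 0 higher and 0 lower, curated transcripts 1 and 0, version-matched transcripts 1 and 1, and leaving out look-alike symbols 1 higher. Without 1 library the counts were 1–3 higher (CELF2-KI RIP over IgG RIP), 0–1 higher (over input), 1–2 higher and 0–8 lower (IgG RIP over input). Version-matched transcripts, the removal of look-alike symbols and the sum of *Psme2* with *Psme2b* were chosen after seeing the data. The cause of these shifts was not tested.

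The replicate block gave 2 and 19, 1 and 24, and 2 and 4 members higher and lower in the 3 comparisons and 18 lower than both. Beside *Psme3* over input, it changed no other call of a named gene. *Psma1* over IgG RIP missed the FDR with total counts (0.58), upper quartile (0.68), glmTreat (0.95), the 2 groups alone (0.88), curated (0.80) and version-matched transcripts (0.82).

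Some values changed sign. Over input, *Psmd11* in CELF2-KI RIP was at -0.24 (total counts), -0.02 (upper quartile), 0.00 (2 groups), -0.06 (curated) and -0.10 (version-matched), and *Psme4* at -0.10 (total counts). IgG RIP over input gave *Psmc4* -0.01, -0.03 and -0.01 and *Psme1* -0.03, -0.05 and -0.03 (DESeq2 size factors, total counts, DESeq2 test), *Psmc5* 0.03 and *Psmd7* 0.07 (curated), and *Psmd7* 0.01 (version-matched). Leaving out 1 library turned the sign of IgG RIP over input for *Psma7* (-0.09 to 0.42), *Psmb9* (-1.34 to 0.10), *Psmc3ip* (-0.18 to 0.46), *Psmc4* (-0.18 to 0.18), *Psmc5* (-0.33 to 0.07), *Psmd7* (-0.18 to 0.07) and *Psme1* (-0.22 to 0.23). Depth limits the immune subunits, with at most 36 counts in a CELF2-KI RIP library for *Psmb8*, *Psmb9* and *Psmb10*.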
